A study of Rattus norvegicus with 15 samples.

Results

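The 6 antioxidant defence genes Nfe2l2, Hmox1, Nqo1, Cat, Sod1 and Sod2 were followed through 5 stable lines of Rat1a, an immortalized rat fibroblast line. They were taken by Ensembl identifier: Nfe2l2 was ENSRNOG00000001548, Hmox1 ENSRNOG00000014117, Nqo1 ENSRNOG00000012772, Cat ENSRNOG00000008364, Sod1 ENSRNOG00000002115 and Sod2 ENSRNOG00000019048. Each count table listed 32545 genes. A filter on low counts left 13676 genes to test, and all 6 were among them.

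Cells convert oxygen radicals in steps. Superoxide dismutases turn superoxide into hydrogen peroxide, SOD1 mostly in the cytosol and SOD2 in the mitochondrial matrix, and catalase, the product of Cat, breaks hydrogen peroxide down to water and oxygen. NRF2, the protein of Nfe2l2, is a transcription factor that is held low by KEAP1-directed degradation and, when released, switches on genes with antioxidant response elements. Hmox1 (haem oxygenase, which opens the haem ring and releases iron, carbon monoxide and biliverdin) and Nqo1 (a quinone reductase that uses NADH or NADPH) are classical NRF2 targets. NRF2 activity is set largely through protein stability, so the RNA of Nfe2l2 is not a measure of it.

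The lines carried an empty vector (EV), wild-type mouse MYC (WT), or mouse MYC with K149R, K158R or K323R (lines R149, R158 and R323), in which arginine takes the place of a lysine. MYC is a transcription factor that pairs with MAX and binds E-box sequences, and the series addresses lysines of MYC that are acetylated. Stranded mRNA libraries were made from 3 biological replicates of each line, 15 libraries in all. Cells grew attached in high-glucose medium with fetal bovine serum, and no other agent is named in the labels. Each construct was read in 1 stable line, whether clonal or pooled is not stated, and the effect of a construct cannot be told apart from that of its line.

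The libraries held 13303631 to 108933235 counts in genes. The R149 replicate 1 library had the fewest genes detected, 13955, against 15056 to 17848 in the other 14. Counts of the 6 genes ran from 224 (Hmox1 in R158 replicate 1) to 43925 (Sod1 in R149 replicate 3). For the smallest the exact Poisson 95% interval was 196 to 255, which covers counting error only. Levels are CPM, a gene's count relative to the library total, corrected by TMM factors, which equalize the bulk of genes between libraries. They are compared between lines and not between genes, since no gene lengths entered. Names of other genes, among them fibroblast markers, Myc, Keap1 and the glutathione genes, could not be paired with the identifiers and were not analysed here.

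The 250 bases before the start site were available for 5 of the 6 genes from RefSeq (rat build GRCr8), Hmox1 being the exception. They are shown for the gene that rose (Sod2), its partner isozyme (Sod1) and the NRF2 target Nqo1, to place the 2 kinds of element most relevant to MYC and NRF2. Each was searched on both strands for the E-box CACGTG and for the core of the antioxidant response element, TGACNNNGC (GCNNNGTCA on the other strand), and capitals mark a match.
Sod2 (chr1:50050169-50050418, minus strand): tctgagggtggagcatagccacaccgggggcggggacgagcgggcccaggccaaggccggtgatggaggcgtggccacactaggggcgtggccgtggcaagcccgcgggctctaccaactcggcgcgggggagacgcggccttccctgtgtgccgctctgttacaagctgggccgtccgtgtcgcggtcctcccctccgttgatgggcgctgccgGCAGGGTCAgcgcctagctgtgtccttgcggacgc
Sod1 (chr11:42942573-42942822, plus strand): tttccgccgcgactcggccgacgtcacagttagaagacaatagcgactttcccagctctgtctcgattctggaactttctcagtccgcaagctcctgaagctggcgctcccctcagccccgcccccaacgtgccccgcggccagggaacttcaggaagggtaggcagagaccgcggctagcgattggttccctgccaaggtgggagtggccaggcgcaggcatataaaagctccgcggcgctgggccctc
Nqo1 (chr19:52220268-52220517, minus strand): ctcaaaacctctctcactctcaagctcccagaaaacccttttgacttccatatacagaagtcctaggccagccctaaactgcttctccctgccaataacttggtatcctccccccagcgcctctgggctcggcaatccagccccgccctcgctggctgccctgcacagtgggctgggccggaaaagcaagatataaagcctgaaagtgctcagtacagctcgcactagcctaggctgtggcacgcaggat
The E-box letters were in 0 of these 5 windows and in 5.59% of 33469 rat windows of the same length. The response element core was in 1 of 5, 35 to 27 bases before the start of Sod2, and in 10.1% of all windows, and the Sod2 match overlapped no E-box. A match is a description of letters and not evidence of binding, and elements further upstream lie outside these windows.

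The comparisons with EV asked which of the 6 RNAs differed when MYC was added. Hmox1 was lower in all 4 MYC lines, as were 8.65% of all genes, and Sod2 was higher in all 4, as were 7.45%. Nqo1 was called lower in R149, and Nfe2l2, Cat and Sod1 were called in none with line as the only term. Calls were made at an edgeR adjusted p below 0.05 over all genes tested. For WT 2 of 6 genes were called, where 26.8% of all genes were (12.6% higher and 14.1% lower). R149 had 3 of 6, beside 38.5% of all genes. R158 and R323 had 2 of 6 each, beside 28.5% and 29.8%. The shares of the 6 genes called were thus near those of all genes, and by this count alone the list did not stand apart. Its median log2 difference ran from -0.32 (R149) through -0.29 (R158) and -0.24 (WT) to -0.19 (R323), with medians over all genes of at most 0.012. Each of these medians lay between Cat and either Sod1 or Nfe2l2, genes that were not called, and Cat depended on replicate 1. Regardless of sign, the median log2 difference over all genes was 0.30 in WT, 0.36 in R149 and 0.32 in R158 and R323. The medians of the 6 genes are thus no evidence that the list shifted as a set. The 4 comparisons share the same EV libraries. In a test for any difference among the 5 lines, 2 of the 6 genes were called, Hmox1 (adjusted p 2.4e-06) and Sod2 (adjusted p 0.00114), against 32% of all genes.

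**Figure D1:**
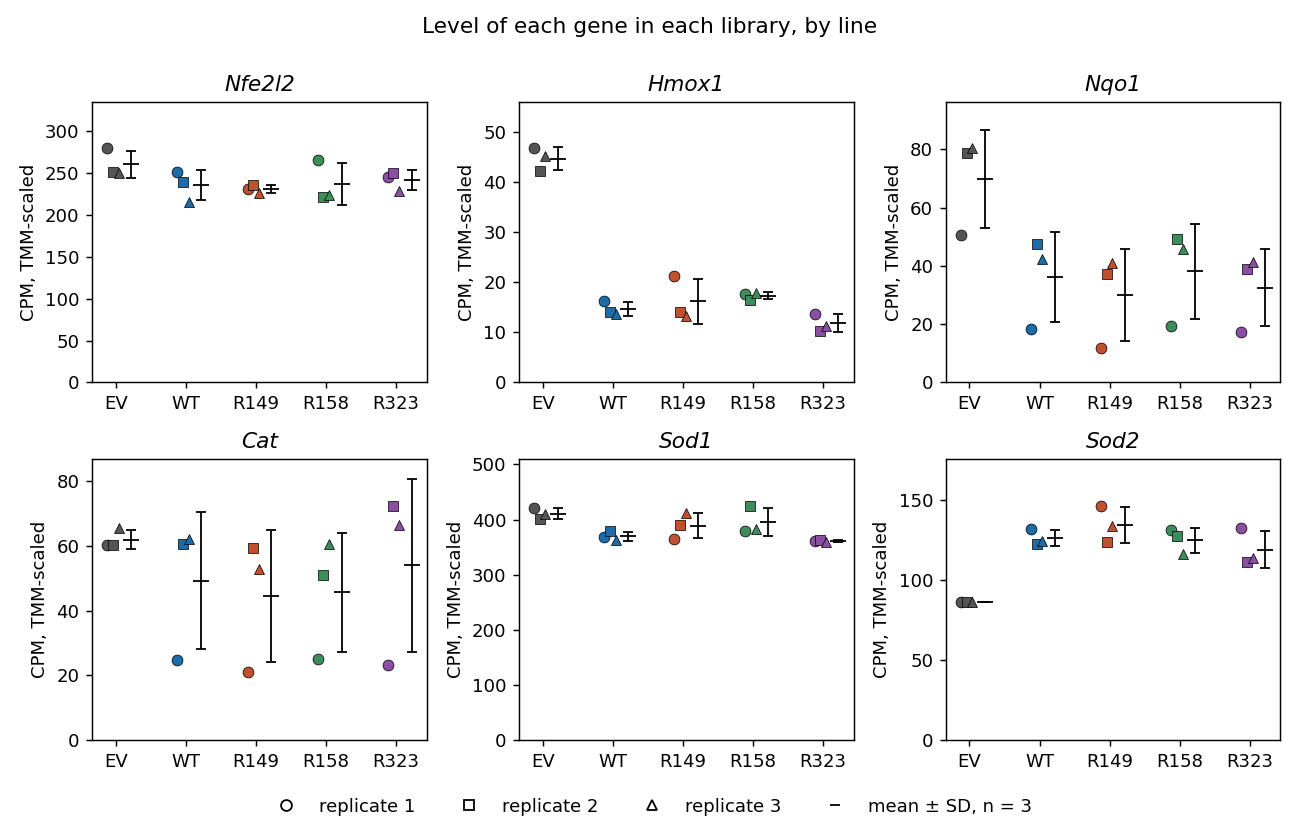
Level of each gene (y axis, TMM-scaled CPM from 0, a separate scale per gene) in the 3 libraries of each line (x axis), with marker shape for the replicate number and a bar for mean ± SD. Hmox1 stands at 42.1 to 46.7 in EV and at 10.3 to 21.3 in the MYC libraries, Sod2 moves the other way, and replicate 1 is the low library for Nqo1 in all 5 lines and for Cat in the 4 MYC lines.

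Nfe2l2, which encodes the regulator NRF2, varied little. Its level was 279, 251 and 250 CPM in the EV libraries, and the 12 MYC libraries ran from 216 through a median of 233 to 265. EV had the highest mean, 260 ± 16.6 CPM (SD, n = 3), and the MYC lines followed at 231 to 241. Ranges overlapped with EV in WT, R158 and R323, while the R149 libraries, at 226 to 236 CPM, all lay below EV, as did 28% of all genes in that comparison. The mean of the 4 MYC lines was 0.91 of EV (95% interval 0.81 to 1.01, edgeR adjusted p 0.151). Levels below 0.81 of EV lay outside that interval.

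Hmox1 fell in each MYC line, to between 0.26 (R323) and 0.39 (R158) of its EV level. The EV libraries held 46.7, 42.1 and 45.2 CPM. WT held 16.4, 14.1 and 13.7 CPM, and R149 held 21.3, 14 and 13.2. In R158 the values were 17.6, 16.5 and 17.8 CPM, and in R323 13.8, 10.3 and 11.3. No MYC library reached the lowest EV library, a pattern that 14.2% of all genes shared.

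Against EV, Hmox1 was 3.03-fold lower in WT (log2 difference -1.60 ± 0.17 SE, edgeR adjusted p 1.0e-05), and in 2.78% of all genes the difference was as low or lower. It was 2.77-fold lower in R149 (-1.47 ± 0.16, adjusted p 1.1e-05), where 5.94% of genes were as low. The fold was 2.58 in R158 (-1.37 ± 0.17, adjusted p 6.7e-05; 3.75% of genes) and 3.80 in R323 (-1.93 ± 0.17, adjusted p 2.0e-06; 2.52% of genes). Each of these calls held in 23 of 23 alternative analyses. The R149 line had the widest Hmox1 spread, because replicate 1 stood above the other 2, and with replicates 2 and 3 alone the log2 difference of R149 was -1.69.

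Nqo1 was lower in the MYC lines than in EV by about 2-fold, with a large spread between replicates. EV held 50.5, 78.8 and 80.3 CPM. WT held 18.4, 47.5 and 42.2, and R149 held 11.8, 37.1 and 40.9. R158 held 19.4, 49.3 and 45.7 CPM and R323 17.4, 38.9 and 41.3. In every line the replicate 1 library was the lowest, which held for Nqo1, Cat and 7.51% of all genes. It lay at 0.63 of the mean of the other libraries in EV and at 0.30 to 0.43 in the MYC lines. All 12 MYC libraries lay below the lowest EV library, as for 14.2% of all genes, and the margin was narrow, between the highest MYC library (49.3) and EV replicate 1 (50.5).

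The log2 difference of Nqo1 from EV was -0.96 ± 0.46 in WT (SE, edgeR adjusted p 0.137), -1.22 ± 0.46 in R149 (adjusted p 0.0468), -0.86 ± 0.46 in R158 (adjusted p 0.171) and -1.10 ± 0.46 in R323 (adjusted p 0.0851). The R149 call held in 11 of 23 alternatives, with adjusted p between 1.0e-05 and 0.141. It was lost without EV replicate 2 (adjusted p 0.117), EV replicate 3 (0.118), R149 replicate 1 (0.141) or R149 replicate 2 (0.0557), and narrowly without replicate 2 or 3 of WT, R158 or R323 (0.0502 to 0.0545). R323 was called for Nqo1 without R149 replicate 1 (0.0390). Over the 4 MYC lines together Nqo1 was called, at 0.49 of EV (95% interval 0.30 to 0.80, adjusted p 0.0223), where 42.4% of all genes were called and 22.4% were lower. That call held in 20 of 22 alternatives and was lost without EV replicate 2 (adjusted p 0.0986) or EV replicate 3 (adjusted p 0.101). With replicates 2 and 3 alone, all 4 lines were called, at log2 differences of -0.83 in WT, -1.04 in R149, -0.75 in R158 and -0.998 in R323, with adjusted p of at most 2.6e-04. That setting left 2 libraries per line and dropped the library that was lowest for Nqo1 in each. The differences shrank while the p-values fell, so these calls are not independent support for lower Nqo1. With the replicate number as a block all 4 lines were called too (edgeR adjusted p at most 3.7e-04). By the labels, EV libraries share only that number with the MYC libraries, as those of the MYC lines do with each other.

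Cat, the gene of catalase, was near the EV level in replicates 2 and 3 of the MYC lines and far below it in replicate 1. EV held 60.1, 60.2 and 65.4 CPM. WT held 24.8, 60.5 and 62.2 CPM, and R149 held 21.1, 59.2 and 52.7. R158 held 25.1, 51 and 60.6 CPM and R323 23.2, 72.3 and 66.3. Replicate 1 was at 0.33 to 0.45 of the mean of replicates 2 and 3 in the MYC lines and at 0.96 in EV. Cat and Nqo1 were the members whose replicate 1 lay below 0.5 of that mean in all 4 MYC lines, as did 1.05% of all genes tested (this limit was chosen after the values were seen). Replicate 1 also had the fewest genes detected in each line. What set the replicate 1 libraries apart is not stated in the labels, and its part in the result was not tested.

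No MYC line was called different from EV for Cat, with log2 differences of -0.33 ± 0.44 in WT, -0.48 ± 0.44 in R149, -0.44 ± 0.44 in R158 and -0.19 ± 0.44 in R323 (SE, edgeR adjusted p 0.413 to 0.780). With the replicate number as a block, Cat was called in R149 (-0.67, edgeR adjusted p 0.0282) and for the 4 lines together (-0.54, adjusted p 0.0209). By the labels, libraries of different lines, EV or MYC, share only that number. Without the block the intervals were wide, 0.47 to 1.29 of EV for the 4 lines together. With replicates 2 and 3 alone the log2 difference shrank to -0.04 in WT and -0.18 in both R149 and R158, and it turned to 0.13 in R323 (adjusted p 0.348). By replicate number the WT difference from EV was -1.28, 0.01 and -0.07, and the R323 difference -1.38, 0.26 and 0.02.

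**Figure D2:**
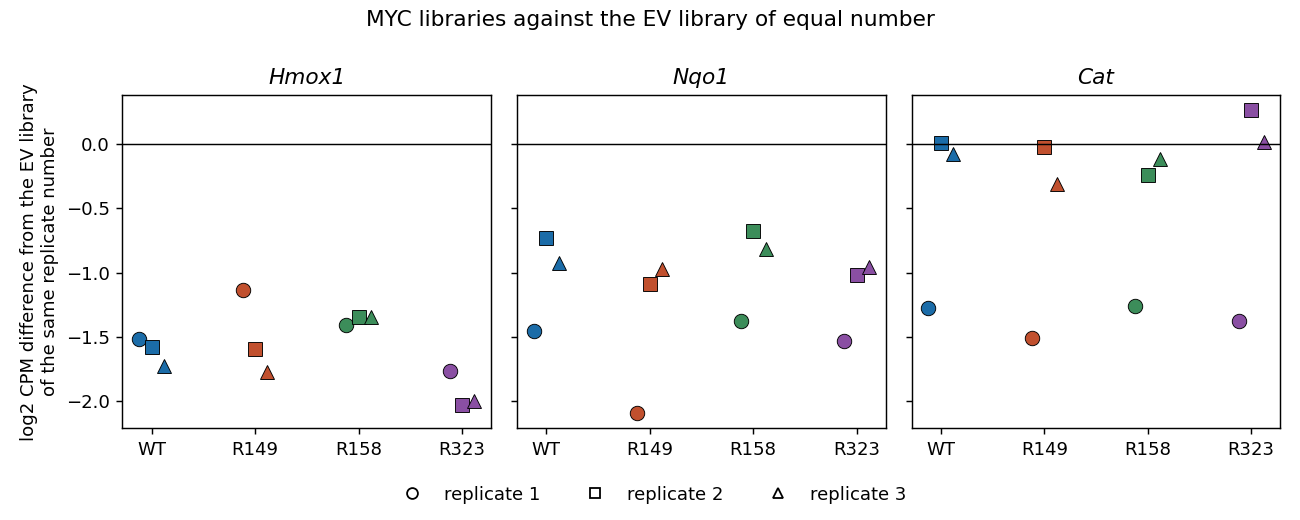
Difference in log2 CPM (y axis) between each MYC library and the EV library of the same replicate number, for Hmox1, Nqo1 and Cat, by line (x axis) and replicate number (marker shape). Hmox1 lies between -1.13 and -2.03 whatever the number, Nqo1 lies between -0.68 and -2.09 with replicate 1 lowest in each line, and Cat is between -0.31 and 0.26 in replicates 2 and 3 but at -1.26 to -1.51 in replicate 1. Libraries of equal number are not stated to share a day or batch.

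Among the superoxide dismutases, Sod2 rose in every MYC line and Sod1 was not called in any. Sod2 stood at 86.3, 86.1 and 86.4 CPM in EV, and the 12 MYC libraries ran from 111 through a median of 126 to 146. All MYC libraries lay above all EV libraries, as for 11.8% of genes. Mean levels were 135 ± 11.3 CPM in R149, 126 ± 4.85 in WT, 125 ± 7.76 in R158 and 119 ± 11.5 in R323 (SD, n = 3). The rise was 1.46-fold in WT (log2 difference 0.55 ± 0.10 SE, edgeR adjusted p 8.7e-04), and 1.56-fold in R149 (0.64 ± 0.10, adjusted p 1.4e-04). It was 1.45-fold in R158 (0.54 ± 0.10, adjusted p 0.00127) and 1.38-fold in R323 (0.47 ± 0.10, adjusted p 0.00228). Between 9.65% (R149) and 15.1% (R323) of all genes rose as far or further, so the size of the change was moderate. Each Sod2 call held in 23 of 23 alternatives.

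Sod1 held 420, 400 and 410 CPM in EV, and the MYC libraries ran from 359 through a median of 374 to 425. Mean Sod1 levels were 410 ± 10 CPM in EV, 396 ± 24.9 in R158, 389 ± 22.8 in R149, 370 ± 8.36 in WT and 361 ± 1.95 in R323 (SD, n = 3). The WT and R323 libraries all lay below EV, as 23% and 25.6% of all genes did. The R323 difference was the furthest from 0, at 0.88 of EV (95% interval 0.78 to 0.99, edgeR adjusted p 0.107), and DESeq2 called it (adjusted p 0.0198). For the 4 lines together the interval was 0.84 to 1.02 of EV.

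The count of Sod2 per count of Sod1 compares both RNAs inside 1 library and does not depend on how libraries are scaled. It was 0.205, 0.215 and 0.211 in EV and 0.3 to 0.401 in the MYC libraries, with no overlap. The ratio rose 1.62-fold in WT, 1.64-fold in R149, 1.502-fold in R158 and 1.57-fold in R323. An exact two-sided permutation test gave p = 0.1 for each of the 4 lines (0.1 after Benjamini-Hochberg adjustment), the smallest that 3 against 3 libraries allow. Within each MYC line replicate 1 had the highest ratio, up to 0.401 in R149.

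**Figure D3:**
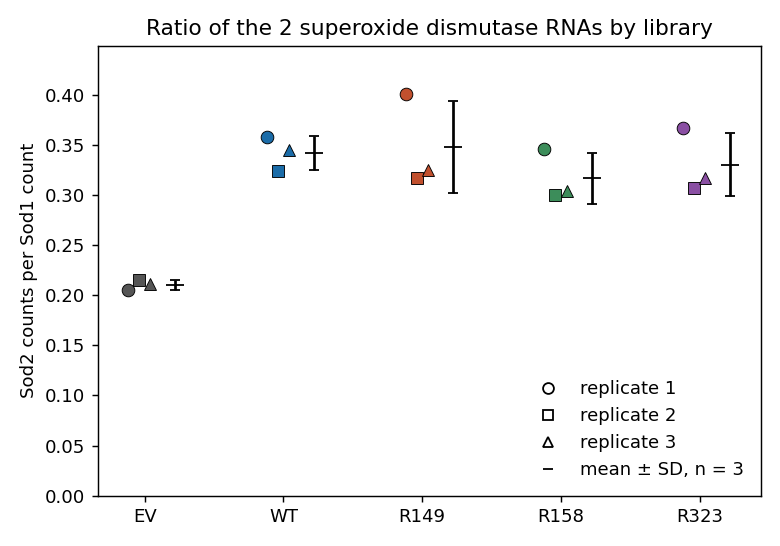
Sod2 counts per Sod1 count (y axis, from 0) in each library by line (x axis), with marker shape for the replicate number and mean ± SD for 3 libraries. EV lies at 0.205 to 0.215, and each MYC line lies above it, with replicate 1 the highest library of each.

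**Figure D4:**
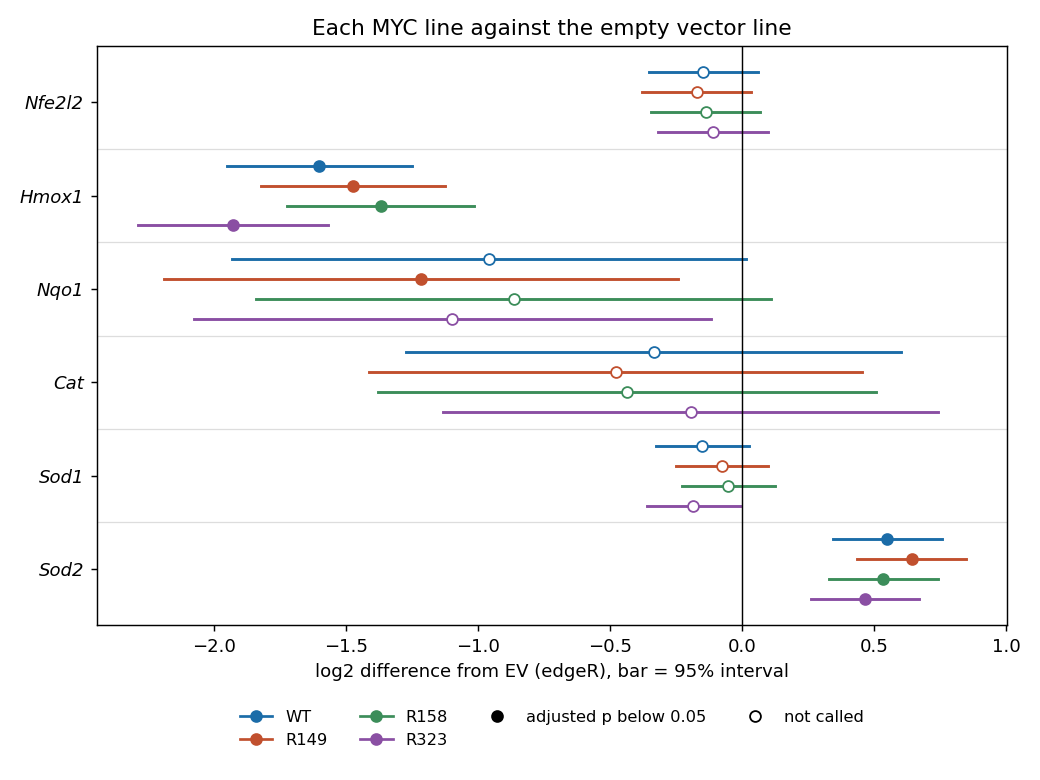
Log2 difference of each MYC line from EV for the 6 genes (x axis), as the edgeR estimate (point) with its 95% interval (bar), coloured by line, filled where the adjusted p was below 0.05. Hmox1 and Sod2 are filled for all 4 lines, Nqo1 for R149 alone, and the intervals of Nqo1 and Cat are the widest.

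The comparisons among MYC lines asked whether a substituted lysine changed the response of these genes. None of the 6 genes was called between a mutant and WT by edgeR, and without a replicate term none had an unadjusted p below 0.05. DESeq2 and limma-voom also called 0. All genes were called at 1.18% for R149, 0.6% for R158 and 0.892% for R323 against WT. The intervals, first without a replicate term, show how much could have been missed. For Hmox1 the log2 difference from WT was 0.13 in R149 (95% interval -0.22 to 0.47), 0.23 in R158 (-0.12 to 0.58) and -0.33 in R323 (-0.68 to 0.03). Without R149 replicate 1 the R149 difference was -0.13. For Sod2 it was 0.09 (-0.11 to 0.30), -0.01 (-0.22 to 0.19) and -0.08 (-0.29 to 0.12) in the same order. For Nqo1 the difference of R149 from WT was -0.26, with a wider interval (-1.22 to 0.71). Among the MYC lines libraries of equal number deviated together, and within numbers 1, 2 and 3 this Nqo1 difference was -0.64, -0.36 and -0.05. With the replicate number as a block it was -0.32 (95% interval -0.65 to 0.01), with an unadjusted p of 0.0597 from edgeR and an adjusted p of 0.319. The block also narrowed the Hmox1 interval of R323 against WT to -0.60 to -0.06 (edgeR unadjusted p 0.0202, adjusted p 0.262), and it called none of the 6 genes between a mutant and WT.

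Between mutants, Hmox1 was the member furthest apart. In order of mean level the lines were EV (44.7 ± 2.35 CPM), R158 (17.3 ± 0.69), R149 (16.2 ± 4.46), WT (14.7 ± 1.43) and R323 (11.8 ± 1.78; SD, n = 3), and of neighbours in this order only EV and R158 were called different. The R158 libraries, at 16.5 to 17.8 CPM, all lay above those of R323, at 10.3 to 13.8, as 10.3% of genes did. Their log2 difference was 0.56 ± 0.17 (SE, 95% interval 0.20 to 0.92) with an unadjusted p of 0.00455 from edgeR and an adjusted p of 0.138, where 0.936% of all genes were called. With the replicate number as a block the adjusted p was 0.0252, and over all 23 alternatives it ranged from 0.00427 to 0.491, with 3 calls. The other calls were with replicates 2 and 3 alone (0.00427) and without R149 replicate 1 (0.0390), a library of another line that enters the shared spread. R149 exceeded R323 by a log2 difference of 0.46 ± 0.17 (edgeR adjusted p 0.303), and no alternative called it. With the replicate number as a block this Hmox1 difference was 0.44 (95% interval 0.17 to 0.71, edgeR unadjusted p 0.00307, adjusted p 0.0931). Within replicate numbers R149 was higher than R323 in 3 of 3. The other 5 genes had no call between mutants by edgeR, DESeq2 or limma-voom, where edgeR called 1.27% of all genes between R149 and R158 and 1.07% between R149 and R323. The block called none of these 5 either. Its intervals left out 0 for Nqo1 in R149 against R158 (-0.40, -0.74 to -0.06, edgeR unadjusted p 0.0236, adjusted p 0.257). They also did for Sod2 in R149 against R323 (0.18, 0.01 to 0.35, edgeR unadjusted p 0.0390, adjusted p 0.247). The block's other intervals of these 5 genes between mutants held 0.

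**Figure D5:**
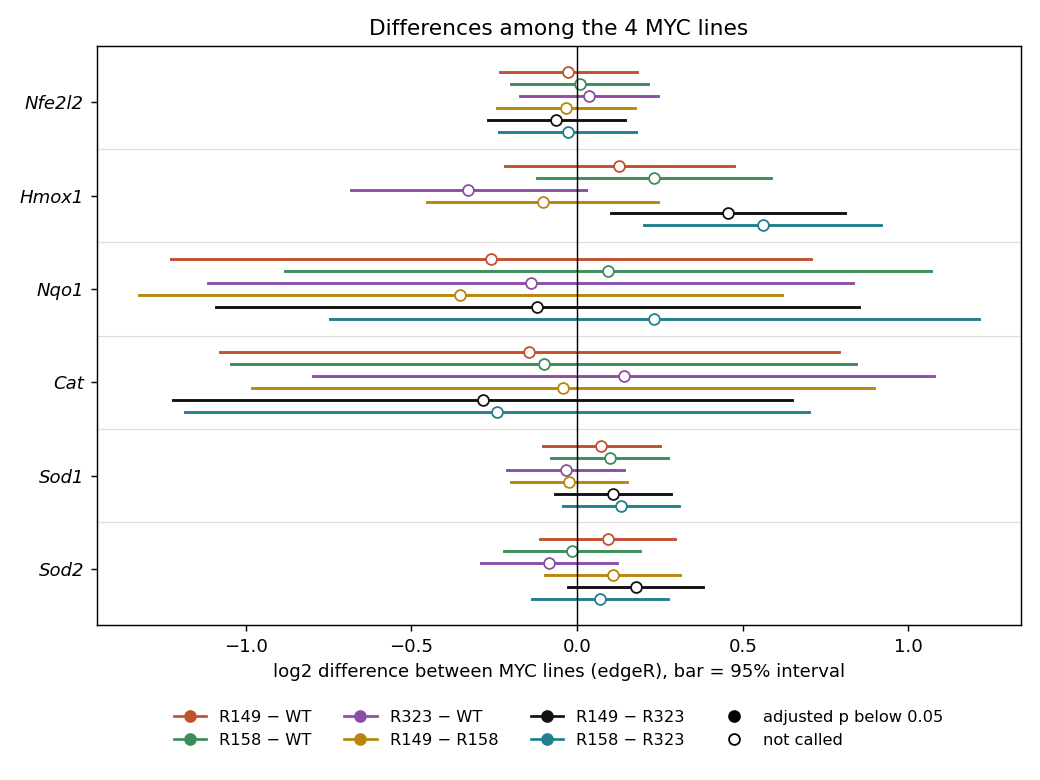
Log2 difference between MYC lines for the 6 genes (x axis), as the edgeR estimate (point) with its 95% interval (bar), coloured by pair of lines. The fit shown has no replicate term. No point is filled, since none passed an adjusted p of 0.05, and the Hmox1 differences of R158 and R149 from R323 are those whose intervals lie above 0.

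Hmox1 had the strongest evidence of any difference among the lines, so genes of like pattern were sought for it by the Pearson correlation of log2 CPM over the 15 libraries, given as a description. These libraries fall into EV and MYC sets, so a high correlation needs little more than a similar step between the sets, and the genes were picked from all those tested for this likeness. The genes most like it were ENSRNOG00000027030 (r = 0.98), at 20.7 ± 0.47 CPM in EV and 3.75 to 6.27 in the MYC lines, and ENSRNOG00000061316 (r = 0.98), at 97.4 ± 8.28 in EV and 26.3 to 38 in the MYC lines (SD, n = 3). Most opposite were ENSRNOG00000049277 (r = -0.97), at 1.56 ± 0.09 CPM in EV and 4.95 to 6.30 in the MYC lines, and ENSRNOG00000020830 (r = -0.96), at 2.51 ± 0.29 and 6.33 to 8.55.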

How the data were processed

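The authors deposited raw counts per Ensembl gene, 1 table per library with no normalization. TopHat2 2.1.0 and build Rnor_6.0 are named in the submitters' processing notes. How reads were assigned to genes, with which annotation and strand rule, is not given in the sources used here, and reads from overlapping genes or copies were not separated. The names of the 6 genes come from the list that defines them, and 0 other identifiers could be paired with a symbol. Members and lists were chosen with earlier results of these data known. The rule for named genes was all 6 members in every comparison, plus the 2 genes most like and 2 most opposite the member with the largest F.

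The main test was that of edgeR 4.0.16 (R 4.3.3). Genes passed filterByExpr (minimum count 10; 99.98% of all counts kept), were scaled by TMM and entered 1 quasi-likelihood fit of all 15 libraries with line as the only term. Each of 12 contrasts was adjusted by Benjamini-Hochberg over 13676 genes. SE is the log2 difference divided by the square root of F. Log2 CPM used a prior count of 2. The procedure was also run on simulated counts, drawn independently for each library. They held no deviation shared by replicate number, so that run does not bear on the replicate block. Replicates differed by more than counting noise (chi-square per degree of freedom 4.44 to 88.3). The p-values measure the spread between cultures of 1 line per construct.

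Libraries of equal number deviated together (correlation of deviations from line means over 0.1 in every pair) in 6 of 6 comparisons among MYC lines. The lowest correlation there was 0.127. With EV that limit was met in 0 of 4, but the correlations were positive. They ran from 0.099 to 0.208 for WT and 0.084 to 0.176 for R158. For R149 they ran from 0.017 to 0.071, and for R323 from 0.0052 to 0.048. The limit of 0.1 thus parts WT from the MYC pairs narrowly. Alternatives were other scalings (RLE factors, library size alone), DESeq2 1.42.0, limma-voom (limma 3.58.1), no filter, the replicate block, only the lines compared, each library left out, and replicates 2 and 3 alone.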

Additional observations from a re-analysis of the deposited data

How the results depend on the processing

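Of 297 recomputed counts of called members, 294 stayed within 1.5 times the main count. The exception was R158 against R323, where the count of 0 became 1 (Hmox1) with the replicate block and with replicates 2 and 3 alone, and ranged from 0 to 1 when 1 library was left out. With the replicate number as a block, the called members against EV numbered 4 in R149 and 3 in each other line. The block added Nqo1 in WT, R158 and R323 (adjusted p at most 3.7e-04) and Cat in R149 (log2 difference -0.67, adjusted p 0.0282), and Cat for the 4 MYC lines together (-0.54, adjusted p 0.0209). By their labels, libraries of different lines share only a number, and this holds among MYC lines as well as with EV. The blocked values against EV assume a pairing that the correlations with EV showed weakly at most. Among MYC lines the block changed no call other than Hmox1. Only the lines compared gave calls of Nqo1 in WT, R158 and R323 (adjusted p 0.0463, 0.0408 and 0.0186), and no filter gave one in R323 (0.0471). DESeq2 added Sod1 for the 4 lines together (adjusted p 0.0466). Of 891 recomputed log2 differences, covering all 6 genes against EV and 9 values among MYC lines, 7 reversed, none of them called in any setting. The 9 were values given in the text or called in some setting, and other differences among MYC lines were not counted. Some of those were less stable. Nfe2l2 in R158 against WT, at 0.008, kept its sign in 8 of 23 alternatives. Cat in R323 against EV became 0.134 with replicates 2 and 3 alone and ranged from -0.457 to 0.170 when 1 library was left out, the upper end without R323 replicate 1. Against WT, Hmox1 in R149 became -0.041 with replicates 2 and 3 alone and ranged from -0.131 (without R149 replicate 1) to 0.258. Left-out ranges were -0.590 to 0.103 for Nqo1 in R149 (the upper end without R149 replicate 1) and -0.063 to 0.024 for Sod2 in R158 (above 0 without WT replicate 1 or R158 replicate 3). The cause of these reversals was not tested. The Nqo1 call in R149 was lost with library size alone (adjusted p 0.0501), with DESeq2 (0.0576) and when any 1 of 10 of the 15 libraries was left out, the highest being 0.141 without R149 replicate 1. With 1 library left out, the Sod2 to Sod1 ratio moved by less than the SD of the MYC line's 3 libraries in 24 of 24 values. Leaving out 1 of those 3 cannot move their mean that far, and the EV ratios lay close together (0.205 to 0.215). That check could thus hardly fail and is no evidence of stability. The 2 genes most like Hmox1 were the same with a prior count of 0.5, while 1 of the 2 most opposite changed. Counts of these genes were all at least 224, and the spread between replicates, not counting error, set the width of the Nqo1 and Cat intervals.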
